A study of Mus musculus with 4 samples.

Results

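The BCL2 family decides whether a cell keeps its mitochondria intact or dies by the intrinsic pathway, and the transcripts of 10 of its genes were compared between the mouse cell lines TS1 and TS2. The genes were chosen by name, with earlier results of these data known. Bcl2, Bcl2l1 and Mcl1 encode survival proteins. Bcl2l11, Bmf, Pmaip1, Bbc3 and Bid encode BH3-only death proteins, and Bax and Bak1 encode the death effectors. Of these 10 genes, 9 had a probe set that names no other gene, out of 19938 genes with such a probe set, and Bax is not analysed here. Each of the 9 had 1 such probe set, so choosing the brightest per gene left no choice to make. Both lines are described in the labels as derived from CD4+ T lymphocytes, and both grew in Iscove-Dulbecco's medium with murine interleukin-9 (IL-9) and no other treatment. Each line gave 2 biological duplicates of total RNA (A and B), each measured on 1 of 4 Affymetrix arrays for mouse genes, and nothing in the labels says whether the duplicates were separate cultures, so the p-values measure the spread between these samples, which may be technical.

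Survival proteins hold the effectors Bax and Bak1 in check on the outer mitochondrial membrane. BH3-only proteins sense stress or loss of a growth factor and act by occupying the survival proteins, by activating the effectors, or both. Once active, Bax and Bak1 open the membrane, cytochrome c leaves, and caspases are activated. In lymphocytes that depend on a cytokine, the BH3-only protein Bim, encoded by Bcl2l11, is known for its part in the death that follows withdrawal of the cytokine.

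Values are log2 intensities after the authors' normalization, and a difference is TS2 minus TS1 on that scale given with its standard error (SE) over 2 arrays in each line (n = 2). A gene was called when limma, a linear model that shares variance between genes, gave an adjusted p under 0.05 after Benjamini-Hochberg adjustment over all 19938 genes. With 2 arrays a line, precision is limited by their number, and the smallest two-sided p of an exact permutation test is 0.333. Levels of different genes are not compared, because probe sets differ in brightness.

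As a check of the labelled cell type, T cell markers were read on the same arrays. Of 10 measured T cell markers, 3 (Cd3e, Cd247 and Ptprc) were called higher in TS2 and 0 in TS1. The summed intensity of all 10 was 513 to 1921 on the TS1 arrays against 11361 to 12854 on the TS2 arrays. Cd4 lay between 5.15 and 5.38 on all 4 arrays, below the array medians over all probe sets, 6.47 to 6.53. Cd2, Cd3d, Cd5 and Thy1 also lay below these medians on all 4 arrays. Cd3e, Cd247 and Ptprc did so on the TS1 arrays only. Cd3g had 10.52 on TS1 A and 6.07 on TS1 B, so the TS1 duplicates differed widely in this gene. Of 6 mast cell markers, Fcer1a lay between 12.69 and 13.08 on the 4 arrays, Kit was called higher in TS1 (1 gene higher in each line at an unadjusted p under 0.05), and the summed intensity of the list was 7433 to 8493 in TS1 and 8892 to 10121 in TS2. Mcpt4, of the same list, had 5.45 and 5.33 on the TS1 arrays but 6.60 on TS2 A and 10.10 on TS2 B (difference 2.96, limma adjusted p = 0.158), so the TS2 duplicates differed widely in it. B cell markers (4 genes) and myeloid markers (5 genes) had 0 called by limma, with 1 and 2 genes at an unadjusted p under 0.05, and of 5 fibroblast markers Pdgfra was called higher in TS1. What these marker differences contribute to the values of the BCL2 family was not tested.

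The members that passed the test were all BH3-only death genes. Pmaip1, Bmf, Bcl2l11 and Bid were higher in TS2 than in TS1, by 3.43-fold, 2.88-fold, 2.04-fold and 1.74-fold, while Bbc3, the other BH3-only member, did not pass. Bad, Bik and Hrk, BH3-only genes outside the member list, were not called either. RNA was pooled over all cells of a culture, so fewer cells with a transcript and less of it in each cell cannot be told apart. None of the 3 survival members and not the effector Bak1 passed. In all, 4 of the 9 measured members were called higher in TS2 and 0 in TS1. Among all genes, 5.05% were called higher in TS2, 8.45% higher in TS1 and 13.5% in either direction. The members were chosen with results of these data known, so no test sets their count against these shares. At an unadjusted p under 0.05, 5 members were higher in TS2, the 4 called ones and Mcl1, and 0 in TS1. The same linear model without shared variances called 0 of all genes, and so 0 members. By its unadjusted p under 0.05, 3 members were higher in TS2 and 0 lower.

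**Figure D1:**
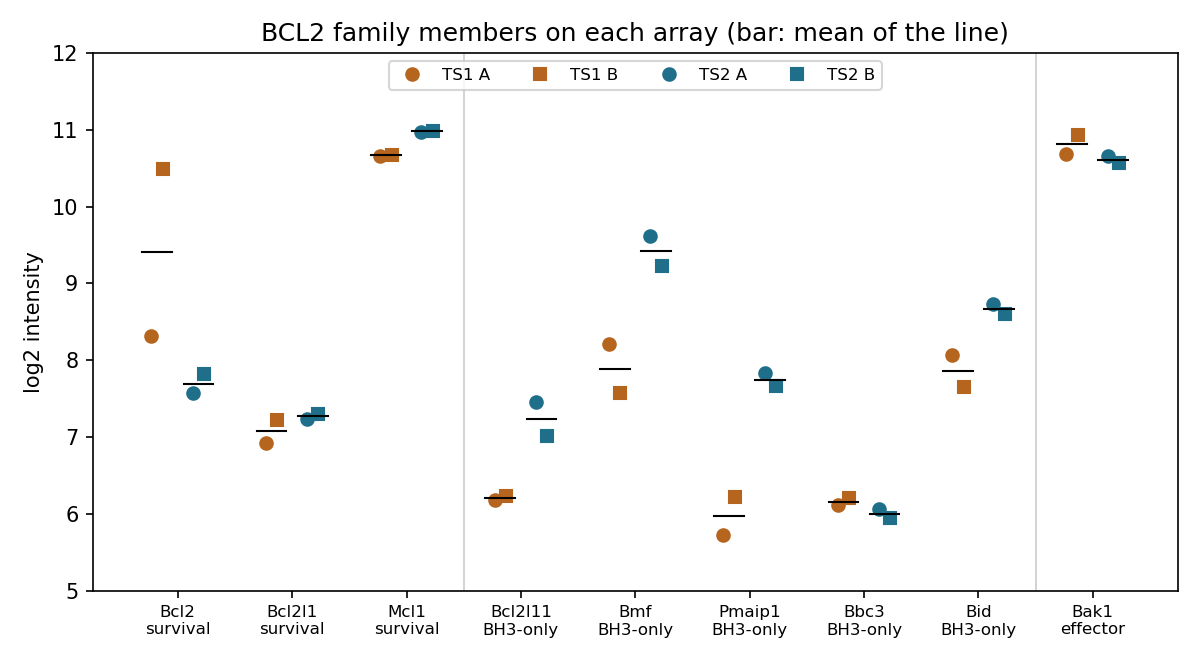
Log2 intensity of the 9 measured members on each of the 4 arrays (circles A, squares B; brown TS1, blue TS2), with a bar at the mean of each line. The TS2 arrays lie above the TS1 arrays for Bcl2l11, Bmf, Pmaip1 and Bid, and Bcl2 on TS1 B, at 10.49, stands apart from its duplicate at 8.31.

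Pmaip1, which encodes Noxa, a BH3-only protein that binds Mcl1 and is a known target of p53, showed the widest difference of the 4 called members. On the log2 scale, TS1 duplicates A and B read 5.72 and 6.22, and TS2 duplicates A and B read 7.83 and 7.67. Both TS1 values lay below the array medians over all probe sets, 6.47 to 6.53. Detection was not analysed, so the TS1 values may be background. Both TS2 arrays lay above both TS1 arrays, with 1.45 between the nearest arrays of the lines. The difference was 1.78 (SE 0.19, 95% interval 1.30 to 2.25, limma adjusted p = 0.00664). Of all genes, 2.49% had a difference of at least this size. For the differences of Bmf, Bcl2l11 and Bid, these shares were 3.28%, 5.78% and 8.14%. Pmaip1 was also called in each of the 4 fits that leave out 1 array, with a difference of 1.53 to 2.03.

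Bmf encodes a BH3-only protein that is held at myosin motors through the dynein light chain Dynll2 until it is released. TS1 gave 8.21 (A) and 7.58 (B) on the log2 scale, against 9.61 (A) and 9.22 (B) in TS2. The TS2 arrays were the higher ones, and the A array was above the B array in both lines. The difference was 1.52 (SE 0.25, 95% interval 0.89 to 2.16, limma adjusted p = 0.0221). The call was lost if TS2 A (difference 1.33, adjusted p = 0.101) or TS2 B (difference 1.72, adjusted p = 0.0559) was left out.

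Bcl2l11 encodes Bim, which can bind every survival protein of the family. The log2 intensities were 6.17 and 6.23 on arrays A and B of TS1, and 7.45 and 7.01 on those of TS2. Here too the TS1 values lay below the array medians, 6.47 to 6.53, and may be background. The TS1 duplicates lay close together, and TS2 A stood above TS2 B. The difference was 1.03 (SE 0.16, 95% interval 0.61 to 1.45, limma adjusted p = 0.0205). The call was lost when TS1 A, TS1 B or TS2 A was left out, with an adjusted p of 0.0676, 0.0721 and 0.0530, while the difference stayed between 0.81 and 1.25 over the 4 such fits.

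Bid encodes a BH3-only protein that caspase-8 cleaves, which links death receptors at the cell surface to the mitochondria. On the log2 scale, TS1 duplicates A and B read 8.07 and 7.65, and TS2 duplicates A and B read 8.73 and 8.60. The lines did not overlap, and the TS1 duplicates were further apart than the TS2 duplicates. The difference was 0.80 (SE 0.16, 95% interval 0.39 to 1.21, limma adjusted p = 0.0368). With TS1 B, TS2 A or TS2 B left out, the difference was 0.60, 0.74 or 0.87 and the call was lost.

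Bbc3 encodes Puma, a BH3-only protein and, like Noxa, a known product of a p53 target gene. TS1 gave 6.11 (A) and 6.20 (B) on the log2 scale, against 6.06 (A) and 5.94 (B) in TS2. All 4 arrays lay within a narrow span, the TS1 arrays just above the TS2 arrays. The difference was -0.16 (SE 0.097, limma adjusted p = 0.361), and its 95% interval of -0.41 to 0.091 leaves out the size of the differences of the 4 called BH3-only members. All 4 Bbc3 values lay below the array medians over all probe sets, 6.47 to 6.53. Detection was not analysed, so these values may be background.

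**Figure D2:**
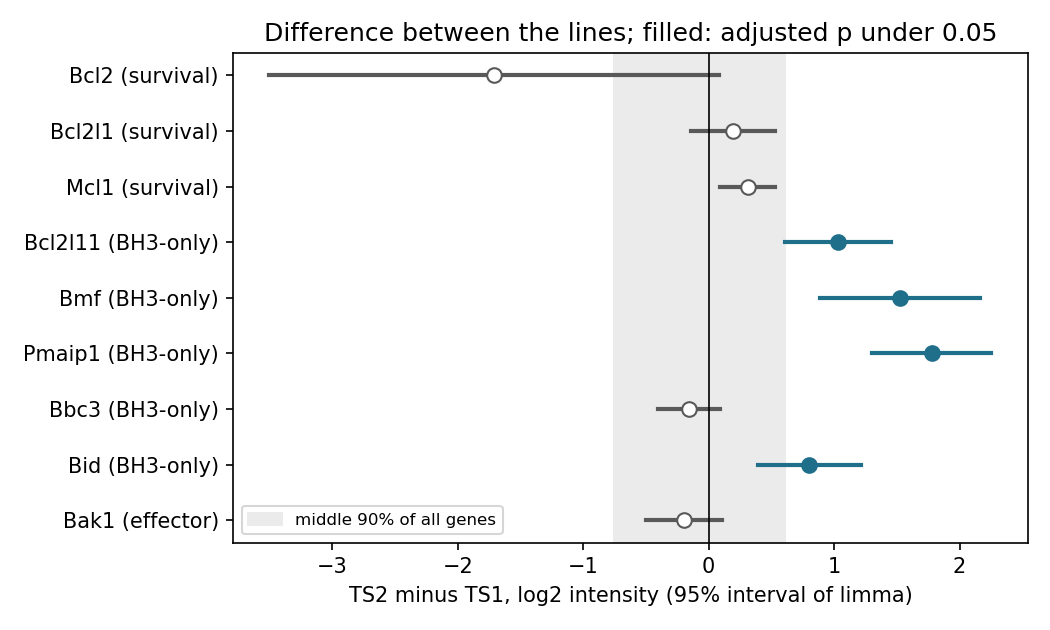
Difference between the lines (TS2 minus TS1, log2 intensity) of each measured member, with the 95% interval of limma as a line; filled points passed an adjusted p of 0.05, and the grey band spans the middle 90% of all genes, from -0.75 to 0.61. The 4 filled points, from 0.80 for Bid to 1.78 for Pmaip1, lie to the right of the band, and Bcl2 has the widest interval.

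The DNA upstream of 4 BH3-only genes is shown because 3 of them, Bcl2l11, Bmf and Bid, were called higher in TS2 and Bbc3 did not pass. Each line gives the 250 bases before the start site that lies farthest upstream in the RefSeq table of mouse assembly GRCm38.p6, 5′ to 3′ in the direction of the gene. The windows are chr2:128125788-128126037 on the plus strand for Bcl2l11, chr2:118549687-118549936 on the minus strand for Bmf, chr6:120916825-120917074 on the minus strand for Bid and chr7:16309333-16309582 on the plus strand for Bbc3. Capitals mark matches, on either strand, to 5 short motifs: GTAAACA for FOXO factors, TTCNNNGAA for STAT factors, CACGTG for E-box proteins, AGATAA for GATA-binding factors and GGGCGG for the GC box.
Bcl2l11: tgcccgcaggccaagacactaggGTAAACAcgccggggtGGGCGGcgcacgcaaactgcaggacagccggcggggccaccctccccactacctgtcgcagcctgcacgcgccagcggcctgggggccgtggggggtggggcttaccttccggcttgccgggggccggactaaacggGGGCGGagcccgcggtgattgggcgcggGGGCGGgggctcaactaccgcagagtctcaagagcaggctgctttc
Bmf: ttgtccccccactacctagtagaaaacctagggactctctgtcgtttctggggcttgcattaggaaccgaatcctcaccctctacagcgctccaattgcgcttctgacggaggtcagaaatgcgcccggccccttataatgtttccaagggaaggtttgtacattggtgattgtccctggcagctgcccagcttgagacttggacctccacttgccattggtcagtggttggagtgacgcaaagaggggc
Bid: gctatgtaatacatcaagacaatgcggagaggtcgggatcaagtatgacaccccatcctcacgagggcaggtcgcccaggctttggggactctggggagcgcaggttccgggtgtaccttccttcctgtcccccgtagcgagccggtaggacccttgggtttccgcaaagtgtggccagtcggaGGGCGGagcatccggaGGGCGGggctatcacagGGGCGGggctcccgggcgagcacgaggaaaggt
Bbc3: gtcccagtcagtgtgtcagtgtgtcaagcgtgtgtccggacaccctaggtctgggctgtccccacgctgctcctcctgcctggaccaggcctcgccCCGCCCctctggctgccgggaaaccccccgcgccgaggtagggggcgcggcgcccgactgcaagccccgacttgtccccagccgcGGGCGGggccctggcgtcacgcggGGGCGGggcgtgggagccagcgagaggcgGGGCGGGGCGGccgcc

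In these windows Bcl2l11 held 1 FOXO match, at position -227 from the start, and 3 GC boxes. Bid held 3 GC boxes, Bbc3 held 5, of which 1 pair overlaps, and no searched motif matched the Bmf window. The FOXO motif matched 3.17% of all 32851 windows of the same length and the GC box 32.7%. The GC content was 72.0% for Bcl2l11, 54.0% for Bmf, 63.6% for Bid and 76.4% for Bbc3, against a median of 52.4% over all windows. Of 16 windows of 9 listed genes, Bax among them and Pmaip1 not, the FOXO motif matched 2, the other in a second start of Bbc3, whereas the STAT motif matched 0 of 16 and 7.02% of all windows. The 3 Bmf starts had no match to any of the 5 motifs. A match is a run of letters and not a site shown to be bound, and the called and uncalled genes share both GC boxes and the FOXO letters.

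None of the 3 survival genes passed, and their values differed in kind. Bcl2 encodes the founding member of the family, which protects lymphocytes. The log2 intensities were 8.31 and 10.49 on arrays A and B of TS1, and 7.57 and 7.82 on those of TS2. Both TS1 arrays lay above both TS2 arrays, but TS1 B was 4.53-fold brighter than its duplicate TS1 A. Only 30 of 19938 genes, Bcl2 included, had a gap at least this large between the TS1 duplicates. The mean difference of -1.71 (SE 0.70, 95% interval -3.50 to 0.080, limma adjusted p = 0.186) moved widely with the TS1 array used. Without TS1 B it was -0.62 (adjusted p = 0.0973), and without TS1 A it was -2.80 and passed (adjusted p = 0.00389).

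Mcl1 encodes a short-lived survival protein on which many lymphocytes depend and to which Noxa binds. On the log2 scale, TS1 duplicates A and B read 10.66 and 10.68, and TS2 duplicates A and B read 10.98 and 10.98. The duplicates were nearly equal, and the TS2 arrays lay above the TS1 arrays. The difference was 0.31 (SE 0.085, 95% interval 0.092 to 0.53), a ratio of 1.24, and it missed the threshold (limma adjusted p = 0.0800). It passed with a prior variance that follows intensity (adjusted p = 0.0449) and with the dimmest 50% of probe sets left out (adjusted p = 0.0493).

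Bcl2l1 encodes Bcl-xL, a survival protein that many cytokines induce. TS1 gave 6.92 (A) and 7.23 (B) on the log2 scale, against 7.24 (A) and 7.30 (B) in TS2. TS1 B lay just below the TS2 arrays, and TS1 A was the lowest. The difference of 0.19 (SE 0.13, 95% interval -0.14 to 0.53, limma adjusted p = 0.404) was smaller than the gap of 0.30 between the TS1 duplicates.

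Bak1 encodes the effector that sits in the outer mitochondrial membrane. The log2 intensities were 10.69 and 10.93 on arrays A and B of TS1, and 10.66 and 10.57 on those of TS2. TS1 B was the highest, and TS1 A lay only 0.034 above TS2 A. The difference was -0.20 (SE 0.12, 95% interval -0.50 to 0.10, limma adjusted p = 0.343).

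The difference between the lines can be set beside the gap between duplicates for each member. For Pmaip1, Bmf, Bcl2l11 and Bid the line difference exceeded the larger duplicate gap, which was 0.50, 0.63, 0.44 and 0.41. For Bcl2, Bcl2l1 and Bak1 the larger duplicate gap, of 2.18, 0.30 and 0.25, exceeded the size of the line difference. Mcl1 had the smallest gaps, 0.014 in TS1 and 0.0034 in TS2. TS1 and TS2 arrays were fully apart for 9 of 9 members, against 58.4% of all genes, but for Bcl2l1, Bak1 and Bbc3 the nearest arrays of the lines were only 0.0089, 0.034 and 0.053 apart.

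**Figure D3:**
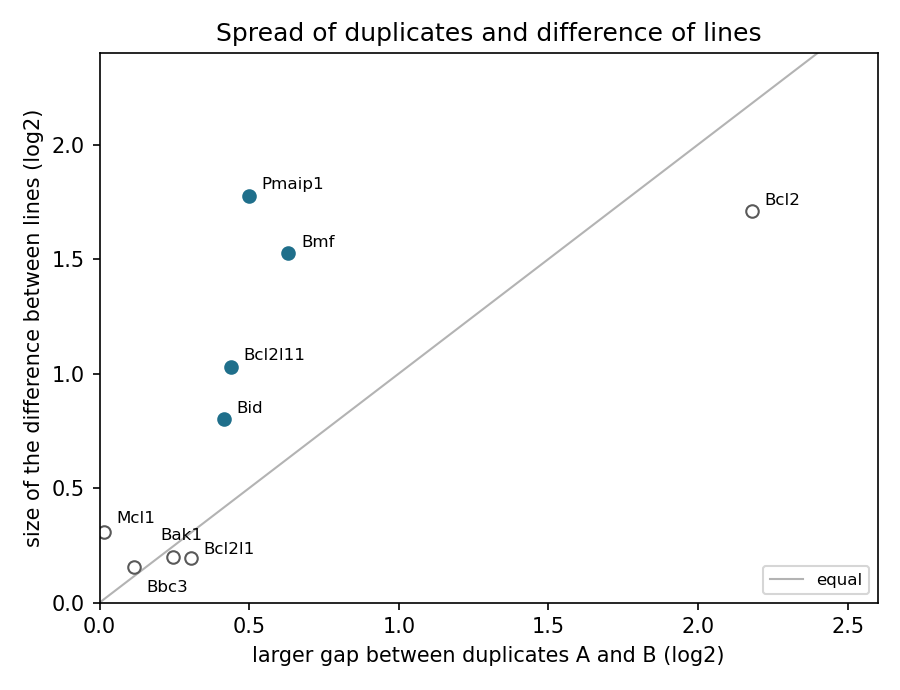
Size of the difference between lines (vertical, log2) against the larger of the gaps between duplicates A and B in TS1 and TS2 (horizontal, log2) for the 9 measured members; filled points passed an adjusted p of 0.05, and the line marks equal values. The 4 filled points lie above the line, as do Mcl1 and Bbc3. Bcl2, at a gap of 2.18, lies below it, as do Bcl2l1 and Bak1.

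Survival and death members were then compared as groups. The mean difference was -0.40 over the 3 survival members and 0.80 over the 6 measured death members. The medians were 0.19 and 0.92, against 0.013 over all genes, so the survival members differ in sign between mean and median because of Bcl2. With each gene centred on its mean over the 4 arrays, the survival mean minus the death mean was 0.17 and 1.03 in TS1 duplicates A and B, and -0.76 and -0.44 in TS2 duplicates A and B. Both TS1 values lay above 0 and both TS2 values below it. The centring makes the 4 values sum to 0, so a TS1 mean above 0 forces a TS2 mean below it. The balance differed by -1.20 between the lines, and by -0.77 without TS1 B. Without Bcl2, an alternative chosen after seeing the data, the values were 0.18, 0.36, -0.40 and -0.15, and the difference was -0.55. No test is given for this balance, since the members were chosen with results of these data known.

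**Figure D4:**
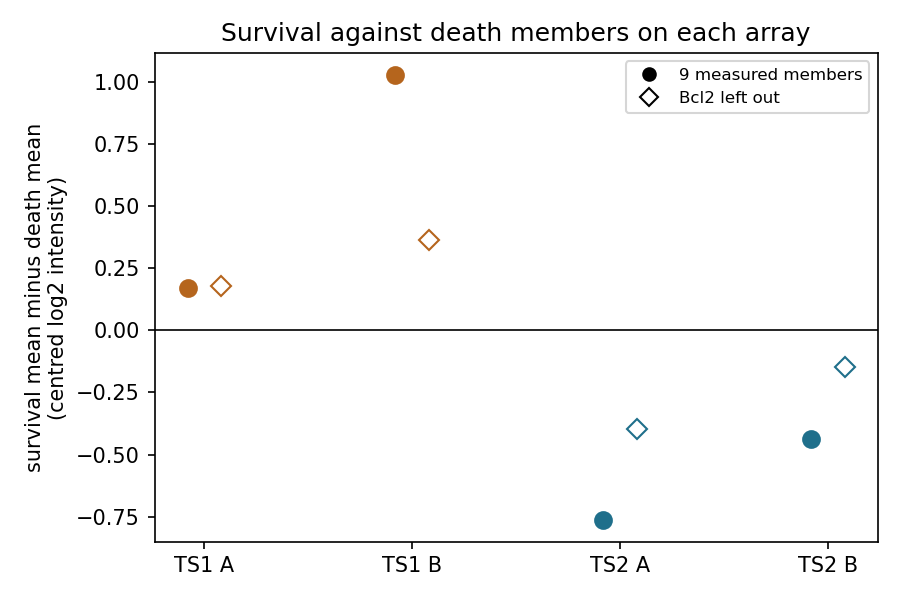
Mean of the survival members minus mean of the death members on each array, after centring each gene on its mean over the 4 arrays (log2); circles use all 9 measured members, open diamonds leave out Bcl2. TS1 arrays lie above 0 and TS2 arrays below 0 in both versions, and the circle of TS1 B, at 1.03, falls to 0.36 without Bcl2. Centring makes the 4 values of each version sum to 0, so the line means must have opposite signs.

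The rest of the BCL2 family gave no called gene, where 13.5% of all genes were called in either direction. With so few genes measured, 0 calls cannot be told apart from that share. Of 18 other family genes listed, 15 had a single-gene probe set, and limma called 0 of them (at an unadjusted p under 0.05, 1 was higher and 2 were lower in TS2). Without shared variances 0 were called, with 0 and 1 at an unadjusted p under 0.05. Their median difference was -0.020 and their median absolute difference 0.14, against 0.16 over all genes. The other BH3-only genes, Bad, Bik and Hrk, differed by 0.035, -0.21 and -0.16. The survival gene Bcl2l2 (Bcl-w) differed by 0.29 (limma adjusted p = 0.120), and Bnip3l, which marks mitochondria for removal, by -0.47 (adjusted p = 0.0617). Bcl2l13, a relative with a role in removing mitochondria, differed by -0.32 (adjusted p = 0.0733). These 6 genes were named after their values were seen. The Bcl2a1 survival genes are near-identical copies, and 3 probe sets that name 4 of them together lay between 4.83 and 5.07 in TS1 and between 5.08 and 5.26 in TS2, with differences of 0.21 to 0.23. The 2 probe sets of Bnip3 disagreed in sign, at -0.26 and 0.19, whereas both sets of Bnip3l gave about the same value, -0.47 and -0.50.

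Genes listed as acting at the mitochondria or downstream of them were called in both directions. Of 18 measured downstream genes, 2 were called higher in TS2 and 3 in TS1, against 5.05% and 8.45% of all genes. Higher in TS2 were Xiap, an inhibitor of caspases, by 0.75 (SE 0.094, limma adjusted p = 0.0111), and Birc3, a ubiquitin ligase of the same inhibitor family, by 0.58 (SE 0.12, adjusted p = 0.0378). Xiap lay at 8.34 and 8.21 on the TS1 arrays and at 9.06 and 9.01 on the TS2 arrays. Lower in TS2 were the executioner caspase gene Casp6 (difference -0.66, adjusted p = 0.0269), Aifm1, a mitochondrial flavoprotein released in cell death (difference -0.63, adjusted p = 0.0150), and Diablo (difference -0.57, adjusted p = 0.0203). Diablo encodes Smac, which leaves the mitochondria to block Xiap, and it is named after its values were seen. Cycs, the cytochrome c gene, and Apaf1, which forms the apoptosome with it, differed by 0.011 and -0.059, and Casp9 by 0.31 (adjusted p = 0.134). Cycs, Apaf1 and Casp9 are likewise named after their values were seen. The calls of Xiap, Aifm1 and Casp6 were lost if TS2 A was left out (0.0743, 0.0751 and 0.140 as adjusted p) or TS2 B was (0.0625, 0.0973 and 0.0764). Birc3 was called in none of the 4 fits with an array left out (adjusted p 0.0668 to 0.168). Aifm1 without TS1 B had 0.0508, and Casp6 had 0.0747 without TS1 A and 0.0548 without TS1 B.

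Among 8 measured death receptor genes, which act upstream of Bid, 2 were called higher in TS2 and 1 in TS1. The shares of all genes called in these directions were 5.05% and 8.45%. Tnfrsf10b, the mouse TRAIL receptor, was lower in TS2 by a difference of -1.07 (SE 0.16, limma adjusted p = 0.0165), with 10.15 and 9.76 on the TS1 arrays and 8.95 and 8.81 on the TS2 arrays. Casp8, whose product cleaves Bid, was higher by 0.42 (SE 0.089, adjusted p = 0.0419). Cflar, which encodes the caspase-8 inhibitor FLIP, was higher by 0.60 (SE 0.10, adjusted p = 0.0248). Fas itself lay between 4.90 and 5.31 on the 4 arrays (difference 0.28, adjusted p = 0.146) and is named after its values were seen. Without TS2 A the adjusted p was 0.0673 for Tnfrsf10b, 0.167 for Casp8 and 0.139 for Cflar, and without TS2 B it was 0.0867, 0.210 and 0.112. Without TS1 B it was 0.0726 for Cflar and 0.117 for Casp8, and without TS1 A it was 0.0814 for Casp8. With the replicate letter as a block the adjusted p was 0.0951 for Casp8, 0.0507 for Cflar, 0.0699 for Casp6 and 0.0730 for Birc3.

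Of 14 measured genes that regulate the family or bind its proteins, 1 was called higher in TS2 and 3 in TS1. Bag3, a co-chaperone of heat shock protein HSP70, was higher in TS2 by 1.12 (SE 0.18, limma adjusted p = 0.0210), with 8.24 and 7.74 on the TS1 arrays and 9.13 and 9.08 on the TS2 arrays. Lower in TS2 were Huwe1, a ubiquitin ligase that marks Mcl1 for degradation (difference -0.67, adjusted p = 0.0131), Bag1, a co-chaperone that binds Bcl2 (difference -0.55, adjusted p = 0.0496), and Dynll2, the light chain that holds Bmf (difference -0.42, adjusted p = 0.0477). Bag1 and Dynll2 passed narrowly. With the replicate letter as a block they had adjusted p of 0.0882 and 0.103, after renewed quantile normalization 0.0543 and 0.0978, and Dynll2 had 0.0689 with arrays centred on their medians. Foxo3 and Foxo1, transcription factors known to act on Bcl2l11, differed by -0.034 (adjusted p = 0.859) and 0.31 (adjusted p = 0.155) (both named with their values known). Without TS2 A the adjusted p was 0.103 for Bag3, 0.0869 for Huwe1, 0.190 for Bag1 and 0.231 for Dynll2, and without TS2 B it was 0.0899, 0.0781, 0.200 and 0.183. Without TS1 B it was 0.106 for Bag1 and 0.0836 for Dynll2, and without TS1 A it was 0.117 for Dynll2. Across the 4 groups of other genes together, 55 were measured, 5 were called higher in TS2 and 7 in TS1, and their median difference was -0.0071. The shares called are 5.05% and 8.45% of all genes in the same directions.

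**Figure D5:**
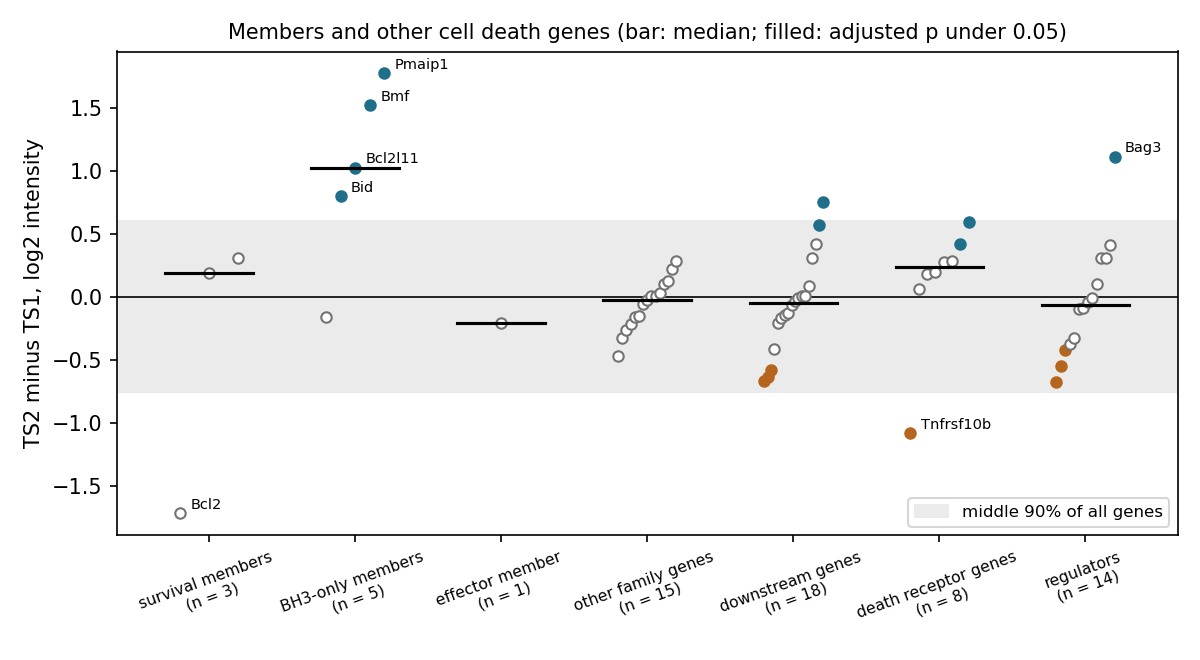
Difference between the lines (TS2 minus TS1, log2 intensity) of every measured member and of the other cell death genes by group, with a bar at each group's median; filled blue points were called higher in TS2 and filled brown points higher in TS1, and the grey band spans the middle 90% of all genes. The BH3-only members have a median of 1.03. The median is 0.24 for the death receptor genes and 0.19 for the survival members, and the effector Bak1 lies at -0.20. The medians of the other family genes, downstream genes and regulators lie between -0.060 and -0.020.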

How the data were processed

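Total RNA of TS1 and TS2, 2 biological duplicates each, was read on 4 Affymetrix arrays. The tools named per the submitters' processing notes are RMA and Affymetrix Expression Console, without versions. The intensities deposited by the authors are linear, from 5.98 to 23157, with 0 missing or non-positive, and RMA takes out any change common to most genes on 1 array. Here log2 was taken, with no pseudocount. Of 35556 probe sets, 21789 name 1 gene in the platform annotation, and the brightest per gene gave 19938 genes, with symbols updated through RefSeq (GRCm38.p6). Array medians were 88.6 to 92.5, and Pearson's r across probe sets was 0.992 to 0.994 within lines and 0.969 to 0.976 between them. Detection above background, scan days and slides are not analysed here.

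All 4 arrays entered 1 limma fit (limma 3.58.1, R 4.3.3, 2 residual degrees of freedom), with an adjusted p under 0.05 as the threshold. The fit was tested on simulated data. The members and lists were chosen with earlier results of these data known. Named genes were all members and, per other list, up to 4 called genes with the largest differences; others are marked as named after their values were seen. As alternatives, 1 array at a time was left out, the replicate letter served as a block, and other prior variances or none, centring, quantile normalization, dim probe sets left out, averaged probe sets and an adjusted p under 0.01 were tried.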

Additional observations from a re-analysis of the deposited data

How the results depend on the processing

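The 4 members called higher in TS2 stayed 4 or became 5 in every listed alternative with all 4 arrays except that 0 were called without shared variances and 1, Pmaip1, at an adjusted p under 0.01. Beside these, a limma fit over all 35556 probe sets, not reduced to 1 per gene, passed only Pmaip1 of the 4 (adjusted p = 0.0218). In that fit Bcl2l11, Bmf and Bid missed the threshold, with an adjusted p of 0.0520, 0.0546 and 0.0798. Leaving out 1 array gave 1 to 3 such members, while 2.11% to 4.32% of all genes were called higher in TS2, and 0 to 1 members higher in TS1, the 1 being Bcl2 without TS1 A. The other cell death genes, 5 called higher in TS2 and 7 in TS1, fell to 2 and 3 with the replicate letter as a replicate block, to 0 and 0 without shared variances and at an adjusted p under 0.01, and ranged from 0 to 4 in each direction with 1 array left out. The remaining array of a line is then assumed to vary like the other line. The replicate block changed no member's call. Same-letter arrays deviated from their line means with a correlation of -0.029, so the letters are not known to pair the samples. No member's difference changed sign in any of these alternatives. The balance of survival and death members moved from -1.20 to -0.55 without Bcl2 (chosen after seeing the data). Bbc3 was not among the genes kept when the dimmest 50% of probe sets were left out. Centring moved the median of all genes by 0.024. Because detection calls were not used, a low value can be background, and a ratio against it may be understated.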
